A study of Mus musculus with 10 samples.

Results

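The genes described here are the Cfap genes (cilia and flagella associated proteins) and the Dnah genes (axonemal dynein heavy chains), followed across sorted small intestinal (SI) epithelial cells, SI tuft cells and thymic tuft cells of the mouse. Members were chosen by gene symbol: every protein-coding gene named Cfap or Dnah plus a number in the GENCODE M21 annotation of GRCm38. That gave 45 members among 43432 identifiers in the count tables, 30 Cfap and 15 Dnah genes on 17 chromosomes, and Cfap99 was not analysed here. No measured value enters the symbol rule, but the family was put forward with results of these libraries known, so its counts of calls and adjusted p-values are a description and nothing is supported by them.

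Axonemal dyneins are the motors of motile cilia and sperm flagella. Their heavy chains sit in outer and inner arms on the doublet microtubules of the axoneme and walk on the neighbouring doublet, which bends the cilium. Cfap proteins are a mixed group: some line the inside of the doublets, others build the central pair, the radial spokes or the tethers of the arms, and some act in the cytoplasm while the arms are assembled. The sensory primary cilium carries no dynein arms. Tuft cells are chemosensory epithelial cells named for their apical microvilli, which are built on actin and not on an axoneme.

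All groups came from naive male C57BL6.Il25(Flare25/Flare25) mice of 12 weeks, so that controls and tuft cells alike carried the Flare25 reporter allele of Il25, and each library came from 1 mouse. SI epithelium (n = 3 libraries) was sorted as DAPI-, CD45-, EPCAM+ and Flare25- cells. SI tuft cells (n = 3, replicates 2 to 4) and thymic tuft cells (n = 4) were the Flare25+ cells of the same gate. Intestinal cells were freed with DTT and EDTA and thymic cells with Liberase and DNase. There were 52000 to 57000 epithelial, 35000 to 36000 SI tuft and 1350 to 1900 thymic cells per library, so organ, dissociation and cell number cannot be told apart in a comparison of thymic with intestinal cells.

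Libraries held 38.7 to 73.6 × 1e6 gene counts, and 3 counts corresponded to 0.0408 to 0.0776 counts per 1e6 counts (CPM). Levels below are CPM on library sizes scaled by TMM. All 14 tuft cell markers tested were higher in both kinds of tuft cell than in SI epithelium, where their summed level was 280 to 438 CPM against 17200 to 21400 in SI tuft and 6540 to 7940 in thymic tuft libraries. The SI epithelium libraries 1, 2 and 3 held counts in the proportions of thymic libraries 3, 2 and 1, equal to 0.478%, 0.519% and 0.526% of those libraries, and thymic libraries 1, 2 and 3 held 0.924%, 0.975% and 0.754% of SI epithelium libraries 3, 2 and 1. For members whose call was changed by subtraction of these shares, and for several genes whose SI epithelium level it moved clearly, the subtracted value is given too. No shares were fitted to the SI tuft libraries. Mitochondrial genes took 4.38% to 5.97% of the counts in thymic libraries and 18.57% to 33.54% in intestinal ones, and the part of this gap in the thymic comparisons was not tested.

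Of the 45 members 40 passed the filter on low counts and were tested. Of these, 15 did not hold 10 counts in all 3 libraries of either SI group. Among the members left out, Cfap97d1 had no count in any library, and Cfap97d2, Cfap299, Cfap73 and Dnah14 stayed at or under 2.02 CPM. Thymic tuft cells expressed the wider range of members: 35 to 38 of the 45 reached 1 CPM in each thymic library, against 15 to 16 in SI tuft and 16 to 17 in SI epithelium libraries. The summed level of all members was 645 to 828 CPM in thymic tuft, 362 to 484 CPM in SI tuft and 195 to 200 CPM in SI epithelium libraries, so the ranges of the groups did not overlap. The level of SI tuft cells came largely from Dnah6 and Cfap74: without this pair, left out after their values were seen, the sums were 565 to 730, 145 to 169 and 183 to 187 CPM, and SI tuft cells lay below SI epithelium. In bulk samples, fewer cells that express a gene and less RNA of it per cell cannot be told apart.

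**Figure D1:**
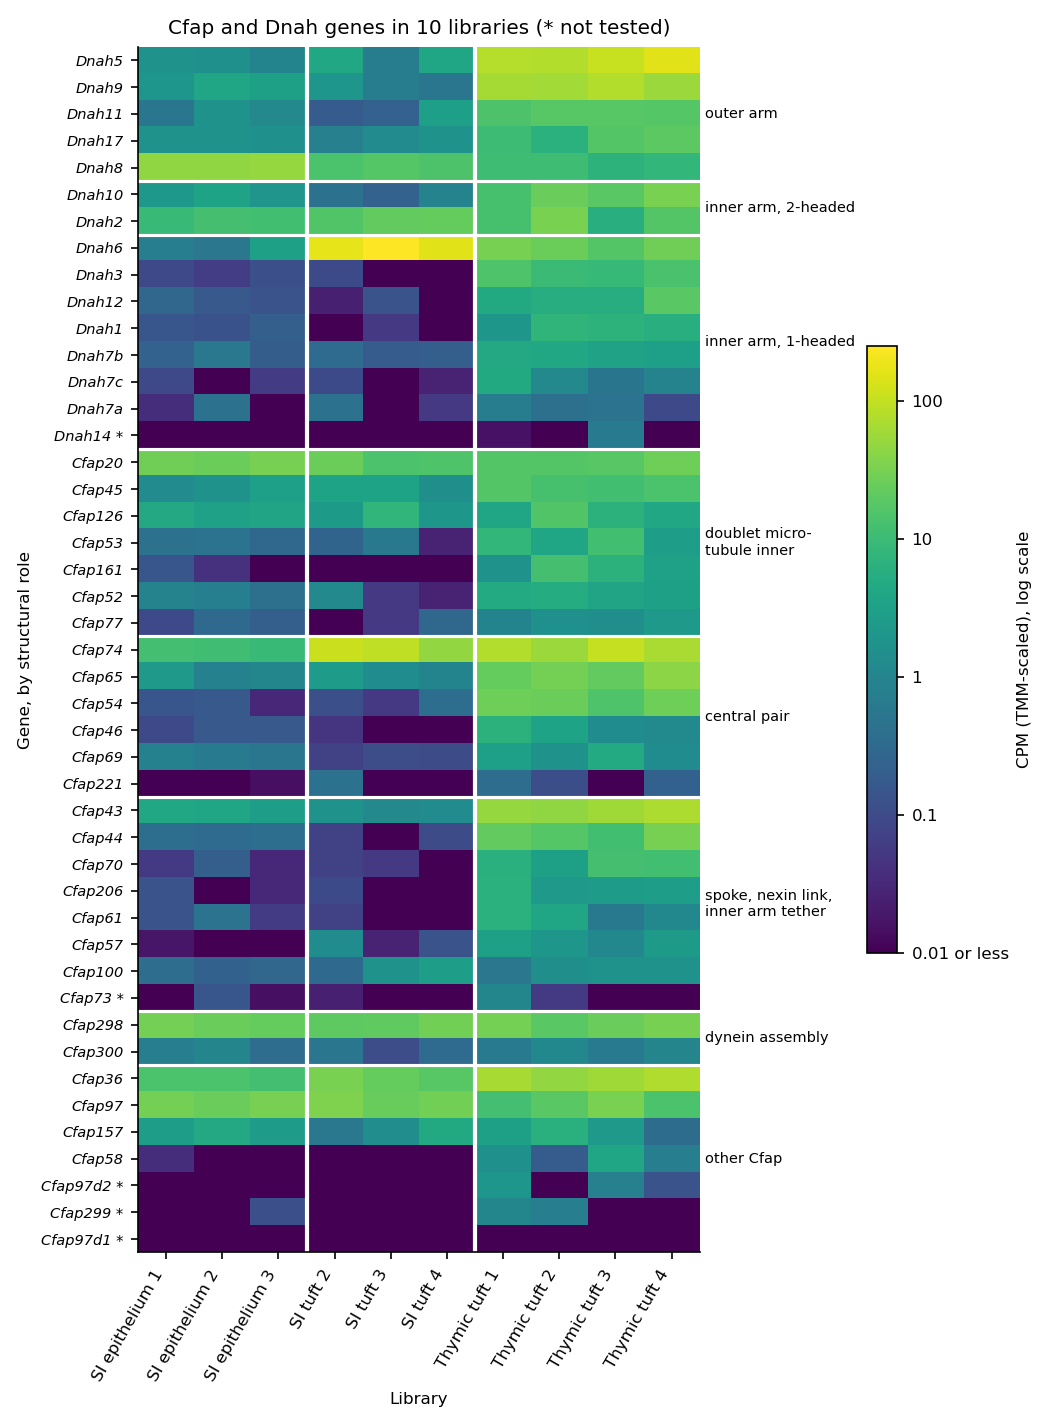
Level of each of the 45 members (rows, grouped by structural role) in each of the 10 libraries (columns), as TMM-scaled CPM on a log colour scale that ends at 0.01. Most rows brighten in the 4 thymic columns, Dnah6 is brightest in the 3 SI tuft columns, and Dnah8 is brightest in the 3 SI epithelium columns.

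Thymic tuft cells had 26 members higher and 2 lower than SI tuft cells, where 28.5% of all 19281 tested genes were called higher and 23.1% lower. Against SI epithelium, 27 members were higher and 1 was lower in thymic tuft cells, with 28.6% and 22.3% of all genes called in those directions. The median log2 difference of the tested members was 3.90 and 3.83 in these comparisons, against 0.12 and 0.15 over all tested genes. These counts and medians take in the 15 members that passed the filter only with the help of the thymic libraries. Such a filter favours members that are higher there, and nothing is read from these counts and medians. Of the 25 members with at least 10 counts in every library of an SI group, 14 were higher and 2 lower than in SI tuft cells, with a median of 2.27, and 15 were higher and 1 lower than in SI epithelium, with a median of 2.78. In SI tuft cells against SI epithelium, 4 members were higher and 6 lower, with backgrounds of 10.9% and 11.4%, and the median was -0.53 against -0.10 over all genes. The comparisons share libraries, so their counts are not independent. Of all tested genes, 51.3% did not overlap between thymic and SI tuft libraries, and 55.4% between thymic tuft and SI epithelium libraries. Between SI tuft and SI epithelium libraries the share was 51.1%. A lack of overlap in a single gene, as given below, was therefore common. With library totals in place of TMM, a setting added after seeing the data, the median of all genes moved by 0.90 and 0.62 in the thymic comparisons and by -0.28 in SI tuft cells against SI epithelium. The higher share of all calls then went from 55.2% to 81.5%, from 56.2% to 75.5% and from 48.9% to 32.2%.

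**Figure D2:**
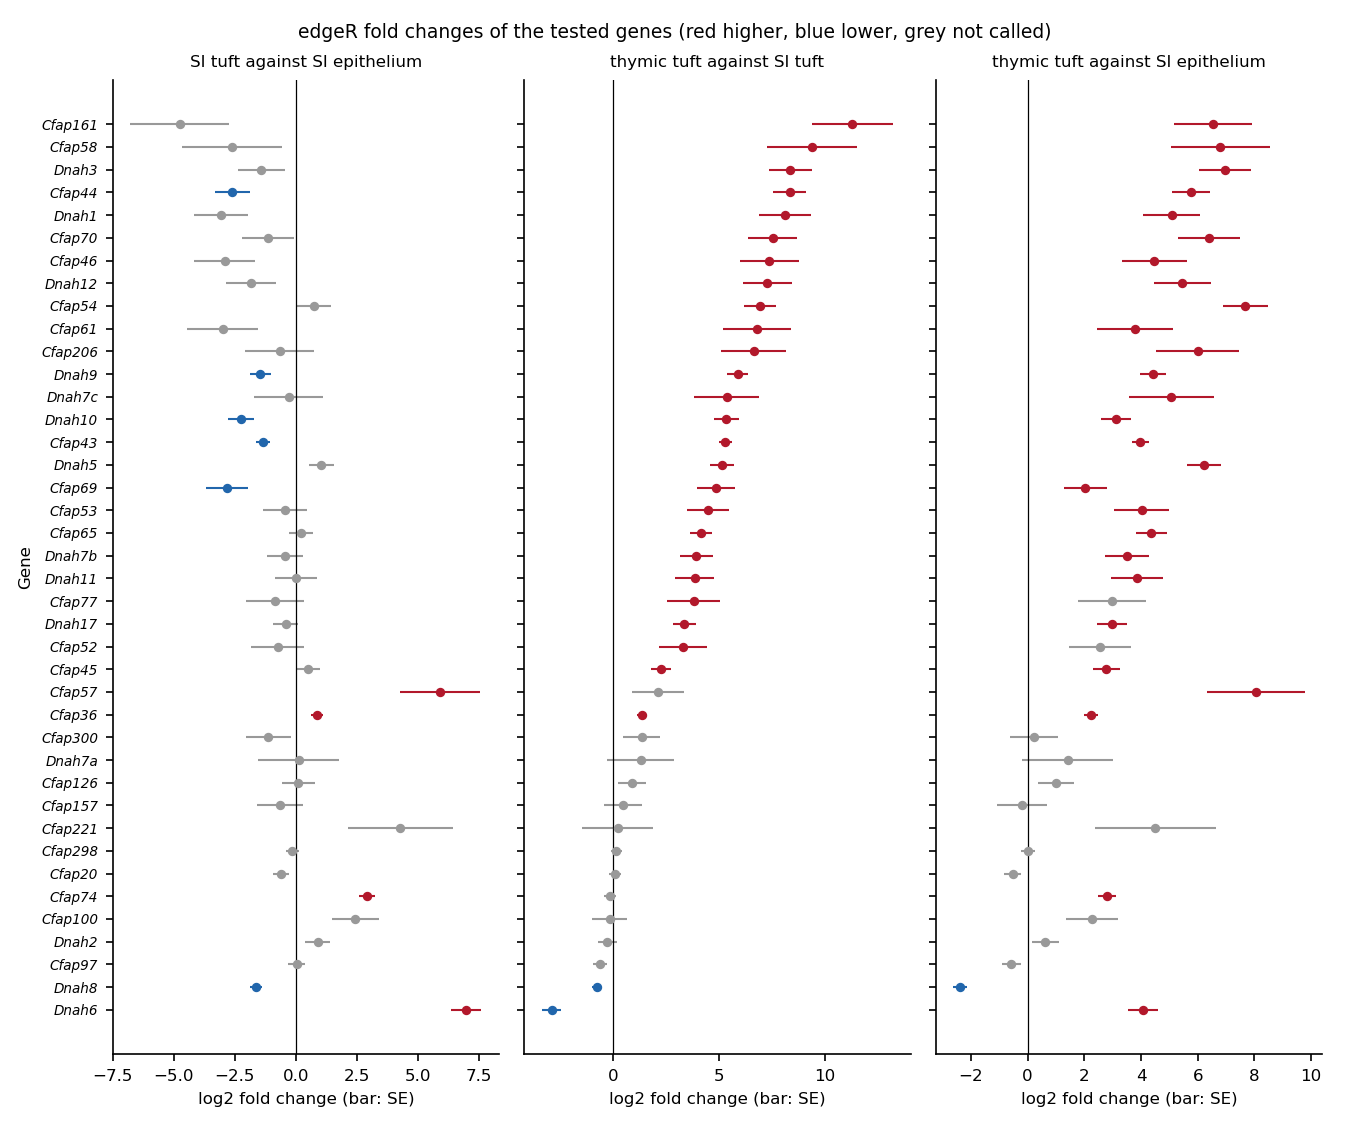
Log2 difference of the 40 tested members (points, with SE) in the 3 comparisons, in the order of thymic against SI tuft cells, with red and blue for members called higher and lower. The fitted values of Cfap161 and Cfap58 against SI tuft cells, where they had no count, depend on the prior count of the fit.

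The outer arm heavy chains rose in thymic tuft cells with the exception of Dnah8. Dnah5, the gamma-type heavy chain of respiratory cilia, stood at 80.1, 77.1, 109 and 161 CPM in thymic libraries 1 to 4. It was at 4.35, 0.707 and 3.88 CPM in SI tuft libraries 2 to 4 and at 1.75, 1.59 and 0.984 CPM in SI epithelium libraries 1 to 3. Every thymic library lay above every intestinal one. The log2 difference was 5.16 ± 0.58 (SE) from SI tuft cells (adjusted p = 1.5e-05) and 6.22 ± 0.61 from SI epithelium (adjusted p = 4.96e-06). With the shared counts subtracted, the SI epithelium mean went from 1.44 to 0.844 CPM, and Dnah5 was then called higher in SI tuft cells than in their epithelial controls (1.81 ± 0.56, adjusted p = 0.0401); it was also called without SI tuft library 3 (adjusted p = 0.0152).

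Dnah9, the beta-type chain that pairs with Dnah5 in distal parts of cilia, was at 64.4, 62.8, 78.1 and 55.4 CPM in the thymic libraries. In SI tuft cells its levels were 2.02, 0.735 and 0.528 CPM and in SI epithelium 2.09, 3.86 and 3.22 CPM. The thymic libraries stood apart from both, with log2 differences of 5.89 ± 0.50 (adjusted p = 1.29e-06) and 4.41 ± 0.46 (adjusted p = 7.08e-06). Within the intestine Dnah9 was lower in tuft cells (-1.47 ± 0.43, adjusted p = 0.0285), a call lost with the shared counts subtracted (0.0742), with a fit of those groups only (0.0694), or without SI epithelium library 2 (0.106) or 3 (0.0763) or SI tuft library 3 (0.112) or 4 (0.0965).

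Dnah11, the beta-type chain of proximal cilia, was even among thymic libraries, at 14.8, 17.8, 17.9 and 17.6 CPM. The SI epithelium libraries held 0.527, 1.80 and 1.17 CPM and the SI tuft libraries 0.194, 0.245 and 3.09 CPM, so that SI tuft library 4 held most of the intestinal tuft signal. The log2 difference from SI tuft cells was 3.86 ± 0.92 (adjusted p = 0.00418), and 6.26 ± 0.72 without that library. The DESeq2 test gave no adjusted p for Dnah11. Without SI tuft library 4 the level of SI tuft cells was also called below that of SI epithelium (-2.40 ± 0.62, adjusted p = 0.0216), where the difference over all libraries was 0.01 ± 0.86. Cdca7l on the opposite strand covers 4.44% of Dnah11's exon bases, and the library kits keep no strand.

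Dnah17, an outer arm chain known from sperm flagella, reached 10.3, 6.49, 16.4 and 19.9 CPM in thymic tuft cells. Its means were 1.28 ± 0.445 CPM (SD, n = 3) in SI tuft cells and 1.70 ± 0.0813 CPM (SD, n = 3) in SI epithelium, and no intestinal library was above 1.75 CPM. The log2 differences were 3.37 ± 0.54 (adjusted p = 0.000273) and 2.97 ± 0.53 (adjusted p = 0.000593).

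Dnah8, the other outer arm chain known from sperm, ran the opposite way. It was at 46.4, 46.5 and 50.6 CPM in SI epithelium, at 14.2, 17.6 and 15.0 CPM in SI tuft cells and at 10.7, 10.7, 7.08 and 8.20 CPM in thymic tuft cells. The groups did not overlap and followed the order epithelium, SI tuft, thymic tuft. SI tuft cells were lower than SI epithelium by a log2 difference of -1.62 ± 0.25 (adjusted p = 0.000646), and thymic tuft cells by -2.38 ± 0.24 (adjusted p = 5.05e-06). The difference between thymic and SI tuft cells was -0.77 ± 0.23 (adjusted p = 0.0156). It was not called with DESeq2's size factors (-0.52 ± 0.24, adjusted p = 0.0857), with a fit of those groups only (0.2) or without SI tuft library 3 (0.0625), and its sign turned with library totals (0.13 ± 0.26, adjusted p = 0.693). A bidirectional lncRNA, 1700097N02Rik, overlaps 0.77% of its exon bases and averaged 190.3, 28.7 and 1.8 counts in the groups in the same order.

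**Figure D3:**
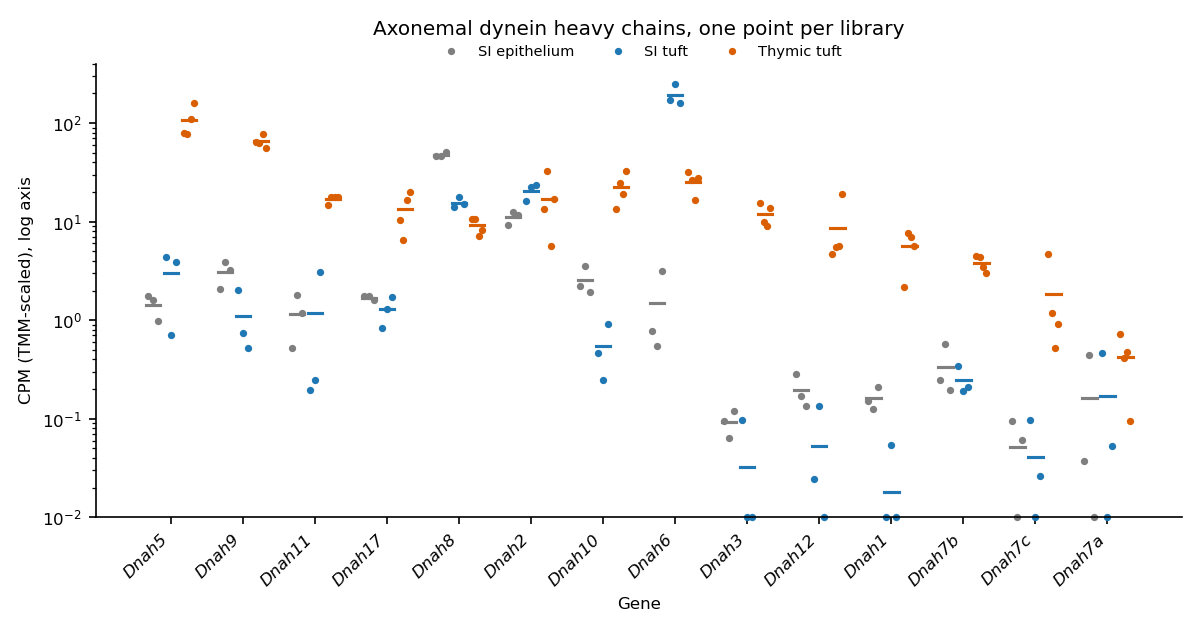
TMM-scaled CPM (log axis) of the 14 tested Dnah genes, with a point for each library and a line at the group mean; values under 0.01 are drawn at 0.01. Thymic points lie above the intestinal ones for most genes, and Dnah6, Dnah8, Dnah2 and Dnah7a do not follow that order. Of all tested genes, 51.3% did not overlap, in either direction, between thymic and SI tuft libraries, and 55.4% between thymic tuft and SI epithelium libraries.

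Inner arms hold a double-headed dynein, of which Dnah2 and Dnah10 are the heavy chains, and several single-headed ones. Of this pair Dnah10 was called and Dnah2 was not. Dnah10 was at 13.4, 24.9, 19.0 and 32.5 CPM in thymic tuft cells, at 0.462, 0.245 and 0.924 CPM in SI tuft cells and at 2.24, 3.57 and 1.94 CPM in SI epithelium, with no overlap between groups. It was higher in thymic than in SI tuft cells by 5.36 ± 0.60 (adjusted p = 1.36e-05), and in the intestine tuft cells were the lower group, by -2.24 ± 0.54 (adjusted p = 0.0103). Dnah2 was present in all groups, at 9.18 to 12.6 CPM in SI epithelium, 16.2 to 23.3 CPM in SI tuft cells and 5.66 to 32.7 CPM in thymic tuft cells. No comparison called Dnah2, with log2 differences of 0.89 ± 0.50, -0.27 ± 0.46 and 0.62 ± 0.47 (adjusted p = 0.23, 0.65 and 0.29). The thymic range enclosed both intestinal ranges. A fit of the intestinal groups only called Dnah2 higher in SI tuft cells (adjusted p = 0.0084).

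Dnah6, a single-headed inner arm chain, was high in SI tuft cells. SI tuft libraries 2 to 4 held 171, 246 and 159 CPM, and thymic libraries 1 to 4 held 31.5, 26.3, 16.6 and 27.6 CPM. The SI epithelium libraries held 0.772, 0.552 and 3.16 CPM, and no groups overlapped. SI tuft cells were above SI epithelium by 6.98 ± 0.63 on the log2 scale (adjusted p = 7.37e-06) and thymic tuft cells by 4.07 ± 0.54 (adjusted p = 6.16e-05). Thymic tuft cells were below SI tuft cells by -2.91 ± 0.46 (adjusted p = 0.00025). SI epithelium library 3 was the high one of its group, and without it the differences from SI epithelium were 8.17 ± 0.45 and 5.25 ± 0.39. Per kilobase of exon its mean level in SI tuft cells was 14.5 CPM, next to that of Cfap298 at 14.9.

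The other single-headed chains were near the limit of detection in the intestine and present in thymic tuft cells. Dnah3 was at 15.3, 10.0, 9.02 and 13.7 CPM in thymic libraries, at 0.0972 CPM in SI tuft library 2 with no count in the other SI tuft libraries, and at 0.0637 to 0.121 CPM in SI epithelium. Its log2 differences were 8.38 ± 1.02 (adjusted p = 2.86e-05) and 6.96 ± 0.92 (adjusted p = 5.71e-05), and the latter became 8.95 ± 1.16 with the shared counts subtracted, which left 0.0214 CPM in SI epithelium. Lyrm1 on the opposite strand covers 10.53% of its exon bases but averaged only 89.8 counts in thymic libraries.

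Dnah12 reached 4.71, 5.49, 5.60 and 18.9 CPM in thymic tuft cells, with thymic library 4 far above the others, and stayed at or under 0.282 CPM in all intestinal libraries (7.30 ± 1.15 from SI tuft cells, adjusted p = 0.000228). Dnah1 reached 2.15, 7.66, 6.98 and 5.66 CPM. With only 2 counts over the SI tuft libraries, its ratio to them was 324 (95% counting interval 89.4 to 2680), and its log2 difference from SI epithelium was 5.08 ± 1.00 (adjusted p = 0.00117). Dnah7a, Dnah7b and Dnah7c are near-identical copies on chromosome 1, so reads may be split between them and their single values are uncertain. Thymic means were 0.427, 3.84 and 1.82 CPM, and Dnah7b and Dnah7c were called higher in both thymic comparisons while Dnah7a was not called. The Dnah7c call was lost against SI tuft cells without SI tuft library 4 (adjusted p = 0.0542), and against SI epithelium without SI epithelium library 2 (0.0561) or 3 (0.0606). In all, 10 of the 14 tested Dnah genes were higher and 2 lower in thymic than in SI tuft cells. Of all tested genes, 28.5% and 23.1% were called in these directions. The Dnah count takes in members that passed the filter only with the help of the thymic libraries, so nothing is read from it.

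Among the Cfap genes, 16 of 26 tested were higher in thymic than in SI tuft cells, and 16 were higher than in SI epithelium. Of all tested genes, 28.5% and 28.6% were higher in these comparisons, which is also the background of the Cfap groups below. The Cfap counts take in members that passed the filter only with the help of the thymic libraries, so nothing is read from them. The central pair group had 4 of 6 members higher against SI tuft cells and 5 of 6 against SI epithelium. Cfap54, a central pair protein, was at 26.6, 25.5, 15.6 and 27.2 CPM in thymic libraries and at or under 0.396 CPM in every intestinal library. Its log2 differences were 6.95 ± 0.77 (adjusted p = 1.31e-05) and 7.68 ± 0.80 (adjusted p = 7.52e-06). With the shared counts subtracted, the SI epithelium mean went from 0.117 to 0.00627 CPM, the difference from SI epithelium became 11.51 ± 0.98, and Cfap54 was called higher in SI tuft cells than in the epithelium (4.48 ± 1.02, adjusted p = 0.0087). Cfap65, needed for sperm flagella, was at 22.7, 30.4, 22.1 and 43 CPM in thymic libraries and at 0.849 to 2.58 CPM in intestinal ones (4.16 ± 0.54 from SI tuft cells, adjusted p = 4.88e-05).

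Cfap74, also of the central pair, was shared by both kinds of tuft cell. It was at 110, 93.9 and 47.9 CPM in SI tuft cells and at 77.7, 53.7, 104 and 70.5 CPM in thymic tuft cells, ranges that overlap, while SI epithelium held 12.0, 11.2 and 9.73 CPM. Both tuft groups were higher than SI epithelium (2.93 ± 0.33, adjusted p = 4.3e-05, and 2.80 ± 0.31, adjusted p = 1.46e-05). Between them the difference was -0.13 ± 0.28 (adjusted p = 0.727), and with library totals it was called higher in thymic tuft cells (adjusted p = 0.0288). The lncRNA 5830444B04Rik overlaps 4.55% of its exon bases. Of the rest of the group, Cfap46 had 2 counts over the SI tuft libraries, a ratio of 186 (counting interval 51.3 to 1540), and Cfap221 stayed at or under 0.462 CPM in every library. Cfap69 averaged 2.82 CPM in thymic tuft cells, 0.0958 in SI tuft cells and 0.692 in SI epithelium. It was called in all comparisons, but its calls against SI epithelium moved past the threshold in 8 of 19 alternatives for SI tuft and in 11 of 19 for thymic tuft cells, including the removal of any SI library (adjusted p up to 0.106 and 0.148), and for thymic tuft cells also of thymic library 1 (0.0565) or 3 (0.0951).

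**Figure D4:**
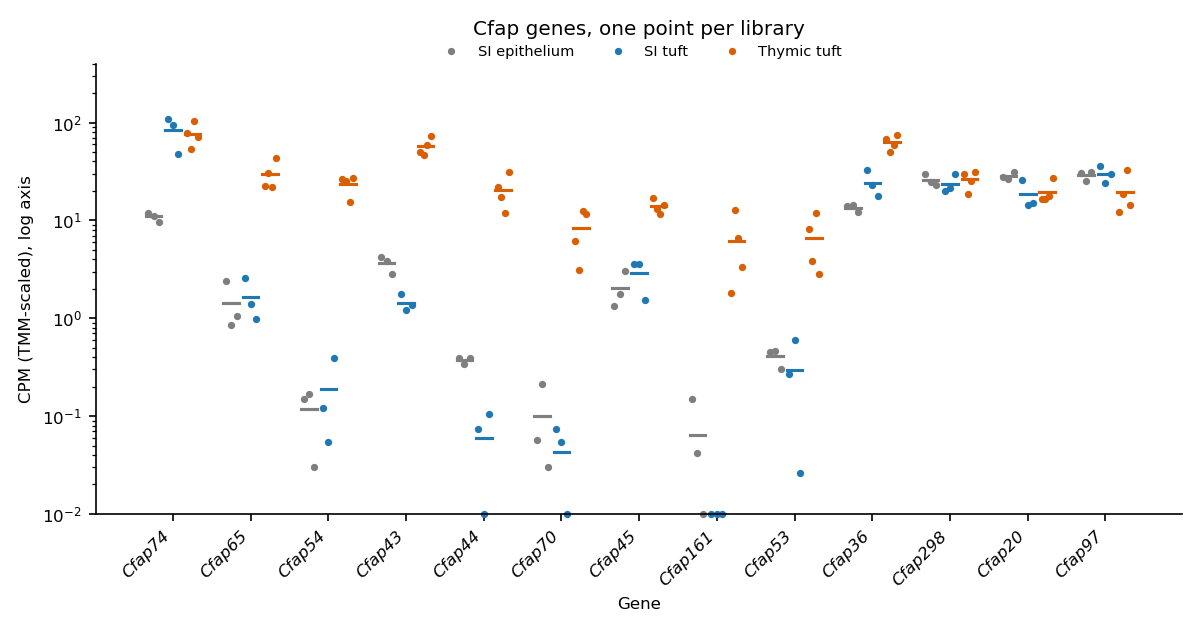
TMM-scaled CPM (log axis) of 13 Cfap genes, with a point for each library and a line at the group mean; values under 0.01 are drawn at 0.01. Cfap74 is high in both tuft groups, and Cfap36 rises from epithelium to thymic tuft cells. Cfap298, Cfap20 and Cfap97 were not called in any of the 3 comparisons.

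The spoke and tether group had 5 of 7 tested members higher than in SI tuft cells and 6 of 7 higher than in SI epithelium. Cfap43 and Cfap44 tether the head of the double-headed inner arm dynein and were called in the same directions. Cfap43 was at 50.4, 46.8, 58.3 and 72.6 CPM in thymic tuft cells, at 1.75, 1.20 and 1.35 CPM in SI tuft cells and at 4.18, 3.88 and 2.83 CPM in SI epithelium, with no overlap. Its difference from SI tuft cells was 5.31 ± 0.32 (adjusted p = 9.5e-08), and within the intestine the tuft cells were the lower group (-1.34 ± 0.28, adjusted p = 0.00488). Cfap44 was at 21.8, 17.2, 11.9 and 31.2 CPM in thymic tuft cells and in SI tuft cells at 0.0729, 0 and 0.106 CPM, a difference of 8.36 ± 0.78 (adjusted p = 3.15e-06). SI epithelium held 0.340 to 0.395 CPM of Cfap44, and 0.269 CPM on average after subtraction of the shared counts. Its lower level in SI tuft cells (-2.60 ± 0.71, adjusted p = 0.0203) was then not called (0.0588), nor was it in a fit of the SI groups only (0.0638) or without SI epithelium library 1 (0.0549) or 3 (0.0541) or SI tuft library 2 (0.0541).

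Cfap70, which is linked to the outer arm, was at 6.12, 3.12, 12.6 and 11.7 CPM in thymic libraries and at or under 0.212 CPM in intestinal ones (7.54 ± 1.17 from SI tuft cells, adjusted p = 0.000203), and its SI epithelium mean went from 0.0996 to 0.0637 CPM with the shared counts subtracted. Cfap206, a radial spoke protein, was at 6.53, 2.39, 2.61 and 2.89 CPM in thymic libraries and at or under 0.132 CPM elsewhere (6.66 ± 1.54, adjusted p = 0.00341). Cfap61 had 3 counts over the SI tuft libraries, a ratio of 116 (counting interval 39.5 to 563). Its call against SI epithelium was lost without SI epithelium library 1 (adjusted p = 0.116) or 3 (0.118) or thymic library 1 (0.071). Cfap57, an inner arm adaptor, was at 3.18, 2.11, 1.14 and 2.51 CPM in thymic libraries, and 1.38, 0.0272 and 0.132 CPM in SI tuft libraries, against 1 count in SI epithelium. SI tuft cells were called higher than the epithelium (adjusted p = 0.0217), which rested on SI tuft library 2 (0.145 without it) and was also lost without SI epithelium library 2 (0.0919) or 3 (0.093). Its ratio was 90.5, with a counting interval of 15.7 to 3630. Cfap100 was not called, but passed the threshold in 6 of 19 alternatives in thymic tuft cells against SI epithelium (DESeq2 test, adjusted p = 0.00741) and in 2 of 19 in SI tuft cells against SI epithelium (DESeq2 test, 0.0279, and a fit of those groups only, 0.0373).

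Proteins of the doublet lumen had 5 of 7 members higher than in SI tuft cells and 3 of 7 higher than in SI epithelium. Cfap45 was at 16.8, 13.1, 11.7 and 14.4 CPM in thymic libraries against 1.53 to 3.62 CPM in SI tuft and 1.32 to 3.04 CPM in SI epithelium libraries (2.27 ± 0.48 and 2.78 ± 0.49, adjusted p = 0.00198 and 0.000571). Cfap53, also required for left-right patterning, was at 8.14, 3.84, 11.8 and 2.81 CPM against at most 0.599 CPM in the intestine (4.48 ± 1.00 from SI tuft cells, adjusted p = 0.00273). Cfap161 had no count in any SI tuft library and 1.82, 12.8, 6.65 and 3.36 CPM in thymic ones. It was at least 79.0-fold higher there, with the floor set at 3 counts per library. Cfap52 and Cfap77 averaged 4.22 and 1.64 CPM in thymic tuft cells and were called against SI tuft cells. Against SI epithelium they were not, though 6 and 9 of 19 alternatives called them higher in thymic tuft cells (DESeq2 test, adjusted p = 0.0093 and 0.00516). Those for Cfap77 included subtraction of the shared counts (3.13 ± 1.22, adjusted p = 0.0498). The calls against SI tuft cells were lost without SI tuft library 3 (adjusted p = 0.0875 and 0.0954), and without SI tuft library 4 for Cfap52 (0.0725) or 2 for Cfap77 (0.0583).

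Cfap20, which forms the inner junction of the doublet, was not called. It was at 26.2 to 30.9 CPM in SI epithelium, 14.3 to 25.9 CPM in SI tuft cells and 16.6 to 27.2 CPM in thymic tuft cells. Without thymic library 4 it was called lower in thymic tuft cells than in SI epithelium (adjusted p = 0.0393). Cfap126, another lumenal protein known as Flattop, was not called either, with a thymic mean of 7.72 ± 5.80 CPM (SD, n = 4) and 16.2 CPM in thymic library 2.

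The dynein assembly factors Cfap298 and Cfap300 did not pass the test in any comparison. Cfap298 was at 23.0 to 29.9 CPM in SI epithelium, 20.0 to 29.5 CPM in SI tuft cells and 18.7 to 31.0 CPM in thymic tuft cells, and the difference of thymic from SI tuft cells was 0.15 ± 0.25. With library totals it was called higher in thymic than in SI tuft cells (adjusted p = 0.00604). Per kilobase of exon it ranked first of the members in both intestinal groups, at 16.3 and 14.9 CPM per kilobase. On the opposite strand, Gm49727 shares 44.24% and 4930534H18Rik 9.31% of the exon bases of Cfap298. Neither gene is in the count tables, and the part of their reads in the level of Cfap298 was not tested. Cfap300 was at or under 1.11 CPM in every library.

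Among Cfap genes outside these groups, Cfap36, a partner of the ciliary GTPase Arl3, was higher in both tuft groups. SI epithelium held 14.1, 14.2 and 12.1 CPM, SI tuft cells 32.4, 22.9 and 17.8 CPM and thymic tuft cells 67.3, 49.5, 59.0 and 74.5 CPM, with no overlap. The thymic level was higher than that of SI tuft cells by 1.36 ± 0.24 (adjusted p = 0.000621) and than that of SI epithelium by 2.22 ± 0.25 (adjusted p = 1.69e-05). The step from SI epithelium to SI tuft cells was 0.86 ± 0.25 (adjusted p = 0.0296). It was lost with library totals (0.0999) and without SI epithelium library 1 (0.084), 2 (0.0824) or 3 (0.111) or SI tuft library 2 (0.136) or 3 (0.0619). Cfap58 had no count in SI tuft cells and was at least 20.8-fold higher in thymic tuft cells, at 1.61, 0.188, 3.94 and 0.759 CPM. Cfap97 and Cfap157 were not called. Cfap97 was at 25.1 to 31.5, 24.2 to 35.8 and 12.2 to 32.8 CPM in the groups, and without thymic library 3 it was called lower in thymic tuft cells than in the other groups (adjusted p = 0.00937 against SI tuft cells and 0.0114 against SI epithelium).

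The sequence around the gene start was searched in all members that could be matched, whether or not they were called. RefSeq promoter windows of 300 bases (250 before and 50 after the start, GRCm38.p6) were matched by symbol for 37 of the 45 members, giving 40 windows. The core of the X-box, the element bound by RFX factors, was searched as GTTGCC on both strands. It was in 15 of 40 member windows (37.5%) and in 12.51% of all 32851 windows, with median GC contents of 56.2% and 52.7%. By gene, it was in 7 of the 20 matched members that were higher in both thymic comparisons and in 7 of the 17 other matched members. The full X-box, which is longer and can hold the core, was in the windows of Cfap206 and Cfap298 (5.0% of member windows and 1.29% of all), and the forkhead core GTAAACA in those of Cfap20, Cfap43 and Dnah17 (7.5% and 3.65%). Cfap298 and Cfap20 were not called. A match describes letters and not a bound site.

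The stretches with these letters are shown for 6 Cfap genes that were higher in thymic tuft cells. They were chosen by hand, and the stretches shown lie outside annotated exons. That of Cfap43 lies before a RefSeq start but inside the span that GENCODE gives the gene (chr19:47736857-47919287). Each is given 5′ to 3′ on the gene's strand, with the match in capitals: the full X-box in Cfap206 (chr4:34730207-34730306, minus strand), the core in Cfap161 (chr7:83794881-83794980, minus), Cfap44 (chr16:44394655-44394795, plus), Cfap46 (chr7:139683819-139683915, minus) and Cfap58 (chr19:47937572-47937671, plus), and the forkhead core in Cfap43 (chr19:47837383-47837482, minus).
Cfap206: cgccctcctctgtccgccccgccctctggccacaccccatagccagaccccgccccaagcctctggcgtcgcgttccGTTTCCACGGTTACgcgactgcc
Cfap161: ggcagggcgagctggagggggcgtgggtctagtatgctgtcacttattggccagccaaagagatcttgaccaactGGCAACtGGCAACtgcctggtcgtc
Cfap44: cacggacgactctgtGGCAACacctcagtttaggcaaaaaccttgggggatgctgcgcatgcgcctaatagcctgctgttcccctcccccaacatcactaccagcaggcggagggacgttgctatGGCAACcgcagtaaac
Cfap46: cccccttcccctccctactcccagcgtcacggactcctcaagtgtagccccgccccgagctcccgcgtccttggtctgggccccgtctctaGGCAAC
Cfap58: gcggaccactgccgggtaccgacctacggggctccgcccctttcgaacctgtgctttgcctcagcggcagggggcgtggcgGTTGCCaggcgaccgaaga
Cfap43: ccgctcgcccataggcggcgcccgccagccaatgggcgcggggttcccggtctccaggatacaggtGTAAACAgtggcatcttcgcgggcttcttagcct
The core appears here as its reverse complement in Cfap161 and Cfap44, a pair in each stretch, and once in Cfap46, and as searched in Cfap58. The other core match of Cfap161 lies nearer its start, within a GENCODE exon, and is not shown. Dnah windows with a match were not checked for exons and are not shown.

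Other cilium genes were read from lists fixed by name. Some listed genes, such as Dnali1 and Dynlrb2, passed the filter only with the help of the thymic libraries. Nothing is read from the counts of calls of lists that hold such genes. Of 14 tested dynein arm intermediate and light chains and docking genes, 9 were higher and 1 lower in thymic than in SI tuft cells, a comparison with backgrounds of 28.5% higher and 23.1% lower. Ttc25, an outer arm docking protein, averaged 80.8 CPM in thymic tuft, 2.80 in SI tuft and 0.736 in SI epithelium, and Dnaic2, an intermediate chain, averaged 15.6, 0.206 and 0.296 CPM. Ccdc114, also a docking gene, fell, with means of 4.30, 45.4 and 23.3 CPM. Of 25 tested genes of the nexin link, spokes and central pair, 14 were higher and 1 lower, among them Rsph1 (39.6, 19.9 and 1.83 CPM) and Rsph4a (18.4, 0.254 and 0.459 CPM). Ak7 was the lower one, at 11.3 CPM in thymic tuft, 32.8 in SI tuft and 2.45 in SI epithelium. Of 11 tested assembly factors 4 were higher, a share near the background, and 1 lower: Dnaaf3 averaged 53.3, 0.189 and 0.620 CPM and Lrrc6 24.0, 0.148 and 0.0839 CPM, while Dnaaf1 fell, at 1.04, 17.1 and 10.9 CPM. With the shared counts subtracted, the SI epithelium means of Ttc25 and Dnaaf3 became 0.239 and 0.257 CPM, and Lrrc6 had none left there.

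The regulators of motile cilia did not all move. Foxj1, the master factor of motile cilia, was at 71.4, 23.1, 63.8 and 71.3 CPM in thymic libraries, at 0.947, 0 and 1.35 CPM in SI tuft and at 0.790, 0.509 and 0.318 CPM in SI epithelium libraries. It was higher in thymic than in SI tuft cells by 6.22 ± 0.93 (adjusted p = 0.000154), and its SI epithelium mean went from 0.539 to 0.213 CPM with the shared counts subtracted. Gmnc was also higher, but its thymic libraries held 0.181, 0.489, 1.93 and 14.7 CPM, so that library 4 held most of its signal. Trp73, Rfx2 and Ulk4 were higher too, with thymic means of 1.37, 19.5 and 8.14 CPM. Trp73 was at 1.15, 2.03, 2.28 and 0 CPM in thymic libraries 1 to 4, a range that overlapped that of SI tuft cells. Trp73 (adjusted p = 0.21) and Rfx2 (adjusted p = 0.192) were not called against SI epithelium. Rfx1 was lower in thymic than in SI tuft cells, at 24.5 CPM against 64.9. The other 7 tested factors were not called in that comparison: Rfx3 was at 22.3, 21.1 and 21.4 CPM in thymic tuft, SI tuft and SI epithelium, Ccno at 5.27, 0.807 and 0.171 CPM, Stk36 at 11.2, 4.73 and 0.976 CPM, Myb at 58.3, 69.2 and 117 CPM, E2f4 at 44.6, 62.8 and 89.8 CPM, E2f5 at 4.30, 4.82 and 7.74 CPM, and Rfx4 at 0.269, 0.362 and 0.00627 CPM. Genes of intraflagellar transport and the primary cilium, which most cells can use, had 15 of 37 higher and 3 lower, with a median log2 difference of 0.70, where 28.5% and 23.1% of all genes were called and their median was 0.12. The subunits of cytoplasmic dynein 1 had 3 of 10 higher and 1 lower, with a median of 0.03, shares near or under those backgrounds. Its heavy chain Dync1h1 was at 535, 490 and 432 CPM. Against SI epithelium, 20 of 37 transport and primary cilium genes were higher and 1 lower, with a median of 1.31. The cytoplasmic dynein 1 list then had 5 of 10 higher and 1 lower, with a median of 0.39. Of the regulators not called against SI tuft cells, Ccno (adjusted p = 0.0298), Stk36 (0.000226) and Rfx4 (0.0492) were higher against SI epithelium. The thymic ranges of Ccno and Rfx4 overlapped those of SI epithelium. Myb (adjusted p = 0.00261) and E2f4 (0.00832) were lower in thymic tuft cells than in SI epithelium. Over all genes 28.6% were higher and 22.3% lower there, and the median was 0.15.

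**Figure D5:**
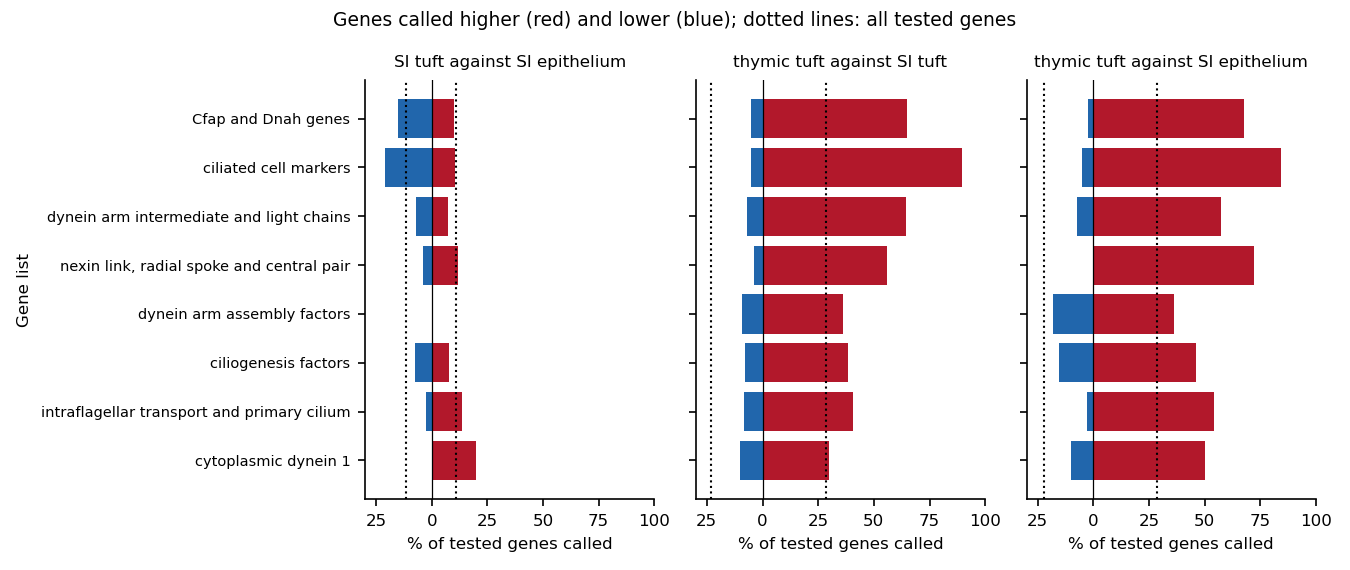
Share of tested genes called higher (red, to the right) and lower (blue, to the left) in each comparison, for the Cfap and Dnah genes and 7 other lists, with dotted lines at the shares over all 19281 tested genes. In both thymic comparisons the bars of ciliated cell markers, of the members and of the structural axoneme lists extend furthest to the right. These lists take in genes that passed the filter only with the help of the thymic libraries.

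Of 19 tested markers of multiciliated cells, 17 were higher and 1 lower in thymic than in SI tuft cells, and 16 higher and 1 lower against SI epithelium. Over all tested genes, 28.5% were higher and 23.1% lower in the former comparison, and 28.6% and 22.3% in the latter. This list also takes in genes that passed the filter only with the help of the thymic libraries. It shares Foxj1, Dynlrb2 and Rsph1 with the lists above, and nothing is read from its counts. The other marker lists below may take in such genes too. The summed level of the 20 multiciliated cell markers was 273 to 380 CPM in thymic tuft, 280 to 359 CPM in SI tuft and 197 to 209 CPM in SI epithelium libraries. Tubb4b, a tubulin that many cells express, made up most of the intestinal sums, and without it (left out after its values were seen) the ranges were 220 to 321, 24.0 to 28.6 and 20.7 to 24.7 CPM. Tekt1 and Ccdc113 had no count in SI tuft cells, no marker was at 0 in all libraries of another group, and Deup1, of multiciliated cells' centriole amplification, was at 2.87, 1.49, 0.938 and 8.87 CPM in thymic libraries, highest in library 4. Thymic epithelial markers, of which 8 of 10 were higher and 1 lower than in SI tuft cells, stood at 1570 to 1940 CPM in thymic libraries against 412 to 457 CPM in SI tuft libraries. Of 8 tested markers of fibroblasts and endothelium 7 were higher in both thymic comparisons, and their summed level was 86.9 to 234 CPM in thymic tuft, 22 to 35.1 in SI tuft and 3.63 to 3.76 in SI epithelium libraries. Of 11 tested leukocyte markers 3 were higher and 3 lower than in SI tuft cells, shares near those over all genes. Against SI epithelium 6 were higher, and the sums were 241 to 323, 183 to 206 and 9.33 to 17.7 CPM in the groups in the same order. In the list of fibroblasts and endothelium, Col1a2, Col3a1, Lum, Pdgfra and Cdh5 had no count in SI tuft cells, Kdr had none in SI epithelium, and no marker was at 0 in every thymic library. The part of multiciliated cells, other thymic epithelial cells, fibroblasts, endothelium or leukocytes within the thymic sort was not tested.

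Within the thymic group no library led the members as a whole. The highest of the 4 values fell in libraries 1, 2, 3 and 4 for 12, 7, 9 and 12 of the 40 tested members, and the lowest for 9, 10, 13 and 8. Per kilobase of exon the members of SI epithelium were led by Cfap298, Cfap20 and Cfap97, those of SI tuft cells by Cfap298, Dnah6, Cfap36 and Cfap74, and those of thymic tuft cells by Cfap36, Cfap298, Cfap43, Cfap74 and Dnah5.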

How the data were processed

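The unit analysed was the gene count: whole read counts per Ensembl gene, as deposited by the authors, who aligned with STAR to GRCm38 per the submitters' processing notes, which give no versions and also name DESeq2. Per the labels' protocols, poly(A) RNA was amplified with the NuGEN Ovation V2 kit and libraries were made with Nextera XT, which keeps no strand, so antisense and overlapping genes cannot be separated. Per the series' design text, 1 SI tuft and 1 SI epithelium replicate were discarded by the authors.

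Symbols, coordinates and exon lengths came from GENCODE M21 for 42548 of 43432 identifiers, and 884 had no symbol. Of the members, 22 share exon bases with another gene. Low counts were filtered with filterByExpr of edgeR at a minimum count of 10 and a total of 15, leaving 19281 genes. The edgeR quasi-likelihood test (edgeR 4.0.16, R 4.3.3) was fitted to the 10 libraries together, 1 mean for each group, with TMM scaling (factors 0.661 to 1.43), and was tested on simulated data. All p-values were Benjamini-Hochberg adjusted over all genes of a comparison and called below 0.05. Each library came from 1 mouse and libraries were fitted as unpaired. Whether libraries of different groups shared a mouse was not tested. Levels are CPM on TMM-scaled library sizes, ± SD. The SE of a log2 difference was its absolute value divided by the square root of the F statistic of the edgeR test. It restates that test and is no separate estimate of the spread. Intervals of ratios and floors of 3 counts cover counting error only.

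Members, roles and lists were chosen with earlier results of these data known. Named were all tested Dnah genes, Cfap genes that were called or averaged 5 CPM in a group, all tested ciliogenesis factors, and at most 4 called genes of each other list with 5 CPM. Deup1, the markers listed as without a count and the members named outside this rule (Cfap100, Cfap221, Cfap300, Cfap157 and those not tested) were added after their values were seen. Alternatives were DESeq2 size factors (RLE), upper quartile scaling, no filter, 1 CPM in 3 libraries, the DESeq2 test (1.42.0), the compared groups only, a replicate block, subtraction of shared counts and removal of each library. Library totals were added after seeing the data. A difference that is not called was given no direction, so it cannot be counted as reversed. Shares were fitted without negative values over 282 genes with at least 2000 thymic counts and at most 2 SI tuft counts, and over 8 genes for the reverse.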

Additional observations from a re-analysis of the deposited data

Results flagged for a closer look

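In 6 tested members 1 of the 4 thymic libraries stood apart by Dixon's gap criterion, which chance meets in about 1 of 20 groups. Cfap20 was at 27.2 CPM in thymic library 4 and at 16.6 to 17.9 CPM in the others. Dnah12 was at 18.9 CPM in the same library and at 4.71 to 5.60 CPM in the others. Cfap206 was at 6.53 CPM in thymic library 1 and at 2.39 to 2.89 CPM in the others. Dnah7c was at 4.69 CPM in thymic library 1 and at 0.519 to 1.17 CPM in the others, with the limit that its reads may be shared with Dnah7a and Dnah7b. Dnah11 was lowest in thymic library 1, at 14.8 CPM against 17.6 to 17.9 CPM. Cfap54 was lowest in thymic library 3, at 15.6 CPM against 25.5 to 27.2 CPM.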

How the results depend on the processing

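Over the 66 called member differences, 1251 alternative values were computed, of which 54 kept the direction but passed the threshold no longer and 1 was reversed: Dnah8 in thymic against SI tuft cells, at 0.13 with library totals. Of 995 alternative values for the 54 differences not called, 44 were called. The 26 members higher in thymic than in SI tuft cells and the 27 higher than in SI epithelium stayed within 1.5 times of those counts under every alternative run. The 2 members lower in thymic than in SI tuft cells became 1 with RLE, with the compared groups only and with library totals, and 1 to 3 without single libraries. The member lower in thymic tuft cells than in SI epithelium became 1 to 2 without single libraries. In SI tuft against SI epithelium, the 4 higher members became 2 with the replicate block, under which Cfap36 (adjusted p = 0.0771) and Cfap57 (0.0623) were not called, and 2 to 4 without single libraries, and the 6 lower ones 3 to 6. The replicate numbers showed no pairing of the libraries: correlations of same-numbered libraries ran from -0.041 to 0.102. Not every library correlated best with its own number, and these values cannot tell whether groups shared mice. Depth limits the members with few intestinal counts, whose fold changes are given as bounds or with counting intervals.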
